A study of Rattus norvegicus with 15 samples.

Results

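The comparison between LID + Vehicle and LID asks what a vehicle infusion into the brain did to striatal transcripts in rats that were already dyskinetic. Its members were taken by the titles of the arrays, 3 titled LID + Vehicle and 3 titled LID, which made 6 of the 15 arrays in the series. All rows with 1 gene symbol were used, 18511 of 36685 transcripts and 18166 distinct symbols. Rats of both groups were adult male Sprague-Dawley animals with a unilateral 6-hydroxydopamine lesion of the right medial forebrain bundle, which destroys the dopamine fibres to the striatum. Both groups then received L-DOPA with benserazide every day for 3 weeks. LID + Vehicle rats also received the vehicle, DMSO and Tween80 in saline, through a cannula implanted in the right lateral ventricle, on the schedule used for the inhibitor. A cannula is described for LID + Vehicle and LID + PD98059 rats and not for LID rats, so infusion and implant cannot be told apart. Each array held the lesioned-side striatum of 1 rat, without pooling. The remaining groups, each of 3 rats, were LID + PD98059 (the same regimen with an inhibitor of MEK), PD (lesion without L-DOPA) and Normal (sham lesion).

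L-DOPA-induced dyskinesia is the abnormal movement that develops under repeated L-DOPA after dopamine loss. It is accompanied by activation of the kinase ERK in striatal projection neurons, and ERK in turn drives immediate early genes such as Fos and Egr1. A cannula or an injected solvent can itself bring about reactive gliosis, in which astrocytes and microglia switch on injury genes such as Lcn2 and Serpina3n. A vehicle group is the usual control for an infused drug for this reason.

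Values were log2 signals from the Affymetrix Rat Gene 2.0 ST array, normalized between arrays by the authors, and their precision is limited by the number of arrays. Array medians over all transcripts lay between 5.56 and 5.65. A dim level of 5.845, the 95th percentile of 70 olfactory receptor transcripts, marks the signal expected of genes that striatum does not use, and 10904 of the transcripts with 1 symbol lay above it. Markers of striatal projection neurons were all above it, 12 of 12 measured. The choroid plexus marker Ttr lay on both sides of it (5.29, 5.19 and 6.11 in LID + Vehicle rats, against 6.77, 6.31 and 6.09 in LID rats). Its mean was lower in LID + Vehicle, though the groups overlapped. Single rats stood apart within both groups. LID replicate 2 lay at least 1 log2 unit below all the other 5 arrays for 65 transcripts, and LID + Vehicle replicate 1 lay as far above all others for 50 and below them for 12, out of 10904. LID replicate 3 lay as far above for 9 transcripts, while the other 3 arrays had at most 2 on either side.

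No transcript distinguished LID + Vehicle from LID once the p-values were adjusted for the number tested. By limma, a linear model over all 15 arrays, 0 of 36685 transcripts reached a fold change of 1.2 together with an adjusted p below 0.05 (0.0% called), and the smallest adjusted p of a transcript with 1 symbol was 0.9999. At an unadjusted p below 0.05 alone there were 1514, or 4.13%. With the fold change added, which is the unadjusted threshold used here, 680 were higher and 669 lower in LID + Vehicle, 3.68% of all transcripts. Among transcripts with 1 symbol, 284 were higher (1.53%) and 205 lower (1.11%) at this threshold, and 47.0% had the higher mean in LID + Vehicle. The groups did not overlap for 618 that were higher (3.34%) and 699 that were lower (3.78%). The median log2 difference was -0.01, and 37 transcripts with 1 symbol differed by at least 1 log2 unit. An exact permutation test between 3 and 3 rats cannot give a p below 0.1, two-sided, so what follows describes how the rats were ordered, gene by gene and list by list. No gene below passed the adjusted threshold, and a gene that also missed the unadjusted one is marked so where its SE is given. Lists were not tested as sets. They were chosen with earlier results of these data known, so the shares given beside them are a description. Of 52 genes past the unadjusted threshold that were followed through leaving out each rat, 28 lost it without at least 1 rat, 19 of them without LID + Vehicle replicate 1 and 18 without LID replicate 3. Where a value without 1 rat is given below, the gene may have lost the threshold in that or another fit.

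**Figure D1:**
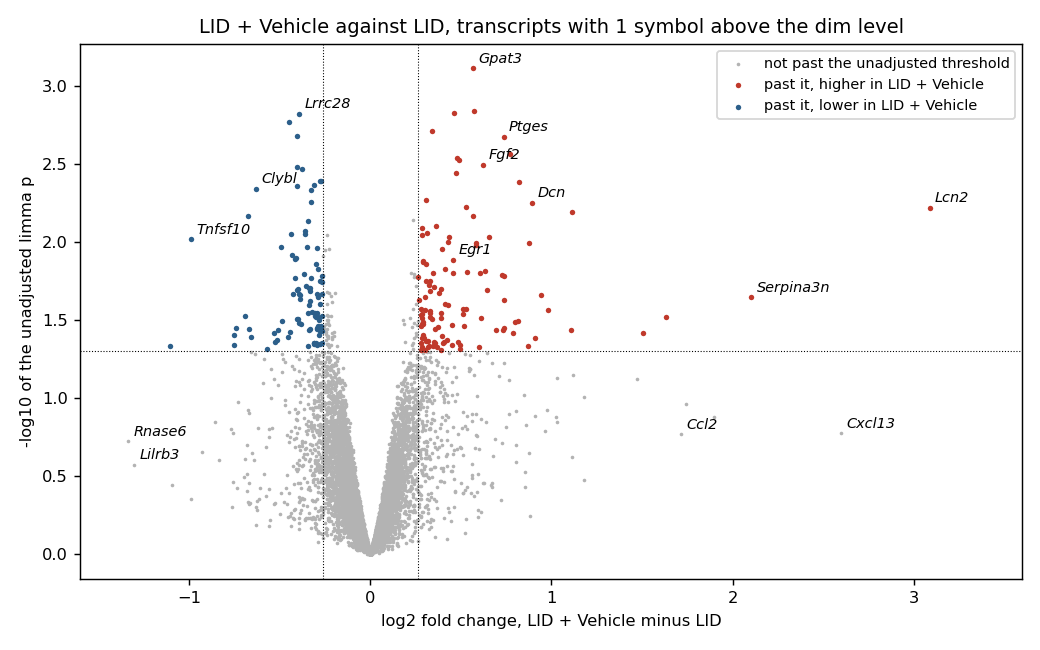
Log2 difference in means of LID + Vehicle minus LID (horizontal axis) against -log10 of the unadjusted limma p (vertical axis) for the 10904 transcripts with 1 symbol above the dim level, with dotted lines at a fold change of 1.2 in either direction and a p of 0.05. Red points (116 higher, 1.06%) and blue points (95 lower, 0.871%) are past both lines, and Lcn2 and Cxcl13 lie farthest to the right.

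The transcripts that separated the groups most evenly were modest in size. Gpat3, an acyltransferase of triglyceride synthesis, had log2 levels of 6.88, 6.92 and 6.49 in LID + Vehicle rats, against 6.09, 6.14 and 6.36 in LID rats. Every LID + Vehicle rat lay above every LID rat, with a log2 difference of 0.57 (SE 0.13, limma, adjusted p = 0.9999, exact permutation p = 0.1), and leaving out any 1 rat kept it between 0.49 and 0.70. Ptges, the inducible synthase of prostaglandin E2, had 6.70, 7.13 and 6.17 in LID + Vehicle rats, against 5.99, 5.94 and 5.87 in LID rats. Its difference was 0.74 (SE 0.19), and the LID rats lay close together while the LID + Vehicle rats spread widely. Fgf2, a growth factor that astrocytes make after injury, stood at 7.75, 7.40 and 6.97 in LID + Vehicle rats, against 6.86, 6.61 and 6.78 in LID rats, a difference of 0.63 (SE 0.17). All 3 genes were picked for a small p and for groups that did not overlap. Their lack of overlap and the exact permutation p of 0.1 therefore follow from that choice.

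Dcn, Apold1 and Mrc1 were also among the 12 higher transcripts with the smallest p that were picked for no overlap. Dcn, which encodes decorin, a proteoglycan of fibroblasts and scar matrix, had 8.27, 7.21 and 7.18 in LID + Vehicle rats, against 6.50, 6.61 and 6.86 in LID rats (0.89 higher, SE 0.27, and 0.54 without LID + Vehicle replicate 1). Apold1, an early response gene of endothelial cells, had 7.64, 7.02 and 6.82 in LID + Vehicle rats, against 6.08, 6.69 and 6.40 in LID rats, 0.77 higher (SE 0.21). Mrc1, the mannose receptor of perivascular macrophages, had 6.02, 6.49 and 6.19 in LID + Vehicle rats, against 5.80, 5.91 and 5.39 in LID rats. It was 0.53 higher (SE 0.16), although 2 of the LID rats lay below the dim level. In bulk tissue of this kind more cells of a type and more RNA per cell cannot be told apart. The other 6 of the 12 with the smallest p were Ano1, a calcium-activated chloride channel, Card19, Pxk, Spsb1, Pex11a, a peroxisome division gene, and Rundc1, which were higher by 0.31 to 0.57.

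**Figure D2:**
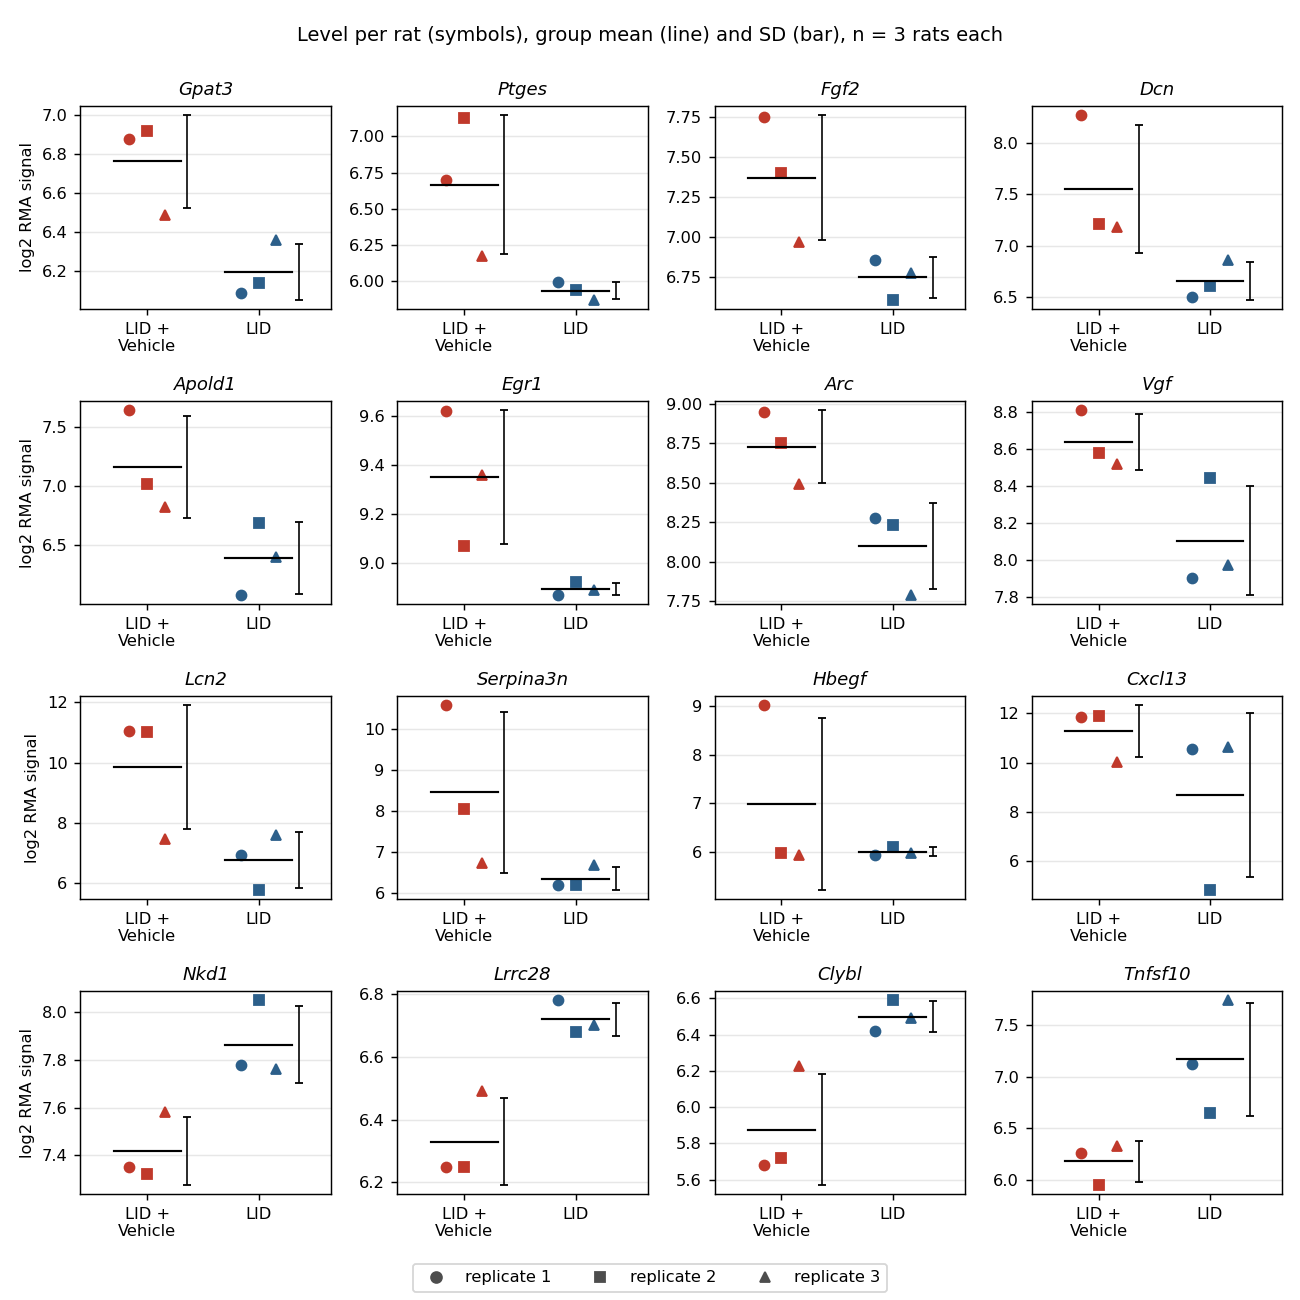
Log2 signal (vertical axis) of 16 transcripts in each of the 6 rats, LID + Vehicle in red and LID in blue, with circles, squares and triangles for replicates 1, 2 and 3, the group mean as a line and the SD as a bar beside it (n = 3 rats each). Gpat3, Ptges, Fgf2, Dcn and Apold1 separate the groups in every rat, whereas Hbegf stands out in LID + Vehicle replicate 1 alone and Cxcl13 is low in LID replicate 2 alone.

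Transcripts lower in LID + Vehicle without overlap were smaller in difference, from -0.27 to -0.63 for the 12 with the smallest p. Lrrc28, a leucine-rich repeat protein, had 6.25, 6.25 and 6.49 in LID + Vehicle rats, against 6.78, 6.68 and 6.70 in LID rats (-0.39, SE 0.10). Nkd1, an inhibitor of Wnt signalling, had 7.35, 7.32 and 7.58 in LID + Vehicle rats, against 7.78, 8.05 and 7.76 in LID rats (-0.45, SE 0.11). Clybl, a mitochondrial enzyme, had 5.68, 5.72 and 6.23 in LID + Vehicle rats, against 6.42, 6.59 and 6.49 in LID rats, and its -0.63 (SE 0.18) was the largest of the 12, although 2 of its LID + Vehicle rats lay below the dim level. In all 3 the LID rats lay within 0.3 of each other. Prim2, a subunit of DNA primase, Afap1l1, Ift80, an intraflagellar transport protein, Bloc1s1, Sptssa, C16h19orf44, Cgnl1 and Aldh4a1, a proline-degrading enzyme, made up most of the rest. The last, Mphosph6-ps1, is listed as a pseudogene and may share signal with its parent gene, so its value is uncertain. Tnfsf10, the death ligand TRAIL, was lower by more (6.26, 5.95 and 6.33 in LID + Vehicle rats, against 7.12, 6.65 and 7.74 in LID rats, -0.99, SE 0.33, and -0.71 and not past the unadjusted threshold without LID replicate 3).

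The largest differences in mean belonged to genes that varied widely between rats of a group. Lcn2, the lipocalin that marks reactive astrocytes, had 11.05, 11.02 and 7.46 in LID + Vehicle rats, against 6.92, 5.76 and 7.59 in LID rats (exact permutation p = 0.2). It averaged 9.84 ± 2.06 in LID + Vehicle and 6.76 ± 0.93 in LID (SD, n = 3 each). The difference was 3.09 (SE 0.94) and lay between 2.48 and 4.28 when any 1 rat was left out, but LID + Vehicle replicate 3 lay below LID replicate 3, so the groups overlapped. Serpina3n, an astrocytic serine protease inhibitor, had 10.59, 8.06 and 6.73 in LID + Vehicle rats, against 6.20, 6.19 and 6.68 in LID rats. Its groups did not overlap, though LID + Vehicle replicate 3 came within 0.05 of the highest LID rat, and the difference of 2.10 (SE 0.81) was 1.04 without LID + Vehicle replicate 1. Serpina3n missed the unadjusted threshold without that rat or without LID replicate 1 or 2 (1.04 to 2.02).

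In other genes with large differences, rats of 1 or both groups lay far apart. Cxcl13, a B cell chemokine, had 11.86, 11.90 and 10.04 in LID + Vehicle rats, against 10.53, 4.82 and 10.65 in LID rats, where replicate 2 alone was low (difference 2.60, SE 1.78, not past the unadjusted threshold, and 0.68 without that rat). Ccl2, the monocyte chemokine, had 11.05, 9.78 and 6.21 in LID + Vehicle rats, against 7.76, 5.27 and 8.88 in LID rats (1.71, SE 1.18, not past the unadjusted threshold). That difference was 0.69 without LID + Vehicle replicate 1, 3.12 without replicate 3 and 0.70 without LID replicate 2. Ighl14, an immunoglobulin heavy chain transcript, had 9.40, 6.13 and 5.22 in LID + Vehicle rats and was below the dim level in all LID rats, at least 2.1-fold higher in the LID + Vehicle mean, with replicate 1 carrying it. Here a dim group is set at the dim level or at its own signal, whichever is higher. Hbegf, a ligand of the EGF receptor, was high in 1 rat only, with 9.02, 5.98 and 5.94 in LID + Vehicle rats, against 5.93, 6.11 and 5.98 in LID rats. Without LID + Vehicle replicate 1 its difference of 0.97 became -0.05.

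At the other end, 4 genes with large negative differences were high in LID replicates 1 and 3 and lower in LID replicate 2. The 4 measured genes of the blood cell list, of which 1 lay above the dim level, all had the higher mean in LID + Vehicle (median 0.23). Of them, 1 below the dim level was past the unadjusted threshold and higher, against 1.53% of transcripts with 1 symbol. Without LID replicate 2 the median of that list was 0.06 and 2 of its members were higher. Lilrb3, a leukocyte receptor, had 6.51, 5.70 and 6.50 in LID + Vehicle rats, against 9.22, 4.97 and 8.44 in LID rats (-1.30, SE 1.12, not past the unadjusted threshold), with -0.46 without LID replicate 1 and -2.59 without LID replicate 2. RT1-Bb, an MHC class II chain, had 6.97, 6.81 and 5.89 in LID + Vehicle rats, against 9.04, 5.24 and 8.68 in LID rats. Rnase6, an antimicrobial ribonuclease, was below the dim level in all 3 LID + Vehicle rats, and the LID mean was at least 1.66-fold higher. Cd34, of endothelial and progenitor cells, had 7.94, 6.83 and 6.86 in LID + Vehicle rats, against 8.80, 7.18 and 8.97 in LID rats, and was the one of these 4 past the unadjusted threshold (-1.11, SE 0.50), which it missed without LID + Vehicle replicate 2 or 3 or LID replicate 1 or 3 (-0.78 to -0.93), while it was -1.67 without LID replicate 2. In each of these 4 genes the LID rats themselves spanned over 1 log2 unit.

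Genes that follow neuronal activity stood higher in LID + Vehicle, with 1 rat well above the others. Of 20 measured immediate early transcription factors, 18 had the higher mean in LID + Vehicle, 5 were past the unadjusted threshold and all of those were higher, against 1.53% of transcripts with 1 symbol. The groups did not overlap for 6, all higher, against 3.34% of transcripts with 1 symbol. Their median difference was 0.34, against -0.01 over all transcripts, and LID + Vehicle replicate 1 was the highest rat for 15 of the 20. Without that rat the median was 0.13, 12 of 20 were higher and 0 were past the unadjusted threshold in that direction. Leaving out LID replicate 1 or LID replicate 2 kept 2 past it and higher in each fit. The mean level of the list was 7.87, 7.11 and 7.00 in LID + Vehicle rats, against 7.00, 6.94 and 7.07 in LID rats, so that replicate 1 stood well clear of the LID range, replicate 2 just above it and replicate 3 within it.

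Egr1, an immediate early transcription factor, had no overlap between the groups with that rat or without it. It had 9.62, 9.07 and 9.36 in LID + Vehicle rats, against 8.87, 8.92 and 8.89 in LID rats, a difference of 0.46 (SE 0.16) and of 0.32 without replicate 1, which was not past the unadjusted threshold. Npas4, which is induced by calcium entry, had 8.70, 6.75 and 6.61 in LID + Vehicle rats, against 5.73, 6.75 and 6.25 in LID rats (1.11, SE 0.47, and 0.43 without LID + Vehicle replicate 1). Ier5 was 0.33 higher (SE 0.12), and 0.19 without LID replicate 2. The Egr1 promoter is shown because serum response factor, a partner of ERK-activated proteins, binds CArG boxes, and it holds 2 of them. Motifs were searched on both strands of 33469 promoters of 300 bases each, from 250 bases before to 50 bases after the start in the RefSeq annotation of the GRCr8 build, and 1.64% held a CArG box. Of the list, 14 of 20 members had a promoter in the table and 2 of these held the box. The sequence of Egr1, chr18:26736828-26737127 on the plus strand, follows, with the boxes in capitals, the first bases of which lie 105 and 83 bases before the start.
Egr1: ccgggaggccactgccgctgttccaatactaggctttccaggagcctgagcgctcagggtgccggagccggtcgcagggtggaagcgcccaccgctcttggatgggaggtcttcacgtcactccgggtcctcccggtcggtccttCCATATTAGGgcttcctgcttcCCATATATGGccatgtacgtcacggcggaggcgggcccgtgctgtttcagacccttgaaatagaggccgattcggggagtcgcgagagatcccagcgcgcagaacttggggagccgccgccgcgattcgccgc
These matches are a description of the letters and not of binding in these rats.

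The products that carry activity into synapses and the feedback genes of ERK behaved like the transcription factors. All 16 measured activity-induced effectors had the higher mean in LID + Vehicle (median 0.33), 5 were past the unadjusted threshold and higher, against 1.53% of transcripts with 1 symbol, and replicate 1 was highest for 13. Arc, a synaptic scaffold of plasticity, had 8.95, 8.75 and 8.49 in LID + Vehicle rats, against 8.28, 8.23 and 7.79 in LID rats (0.63, SE 0.23), with no overlap. It missed the unadjusted threshold without LID + Vehicle replicate 1 (0.52) or LID replicate 3 (0.47). Vgf, a secreted neuropeptide precursor, had 8.81, 8.58 and 8.52 in LID + Vehicle rats, against 7.90, 8.44 and 7.97 in LID rats (0.53, SE 0.19). Its call was lost without LID + Vehicle replicate 1 (0.45), LID replicate 1 (0.43) or LID replicate 3 (0.47). Ptgs2, which encodes cyclooxygenase 2, had 10.55, 9.06 and 8.92 in LID + Vehicle rats, against 8.67, 8.98 and 8.51 in LID rats, where replicate 3 of the infused group lay below the highest LID rat. Its difference was 0.79 with all rats and 0.27 without LID + Vehicle replicate 1. Without LID + Vehicle replicate 1 the list median was 0.18 and 0 members were past the threshold. Without LID replicate 1 the median was 0.34, and without LID replicate 3 it was 0.235, with 1 member past the threshold in each fit.

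Vgf is shown because its promoter holds the cAMP response element (TGACGTCA, which does not contain the letters of the AP-1 motif), present in 1.83% of all promoters and in 3 of the 15 effectors with a promoter in the table. The window is chr12:25276971-25277270 on the minus strand, with the element in capitals 90 bases before the start.
Vgf: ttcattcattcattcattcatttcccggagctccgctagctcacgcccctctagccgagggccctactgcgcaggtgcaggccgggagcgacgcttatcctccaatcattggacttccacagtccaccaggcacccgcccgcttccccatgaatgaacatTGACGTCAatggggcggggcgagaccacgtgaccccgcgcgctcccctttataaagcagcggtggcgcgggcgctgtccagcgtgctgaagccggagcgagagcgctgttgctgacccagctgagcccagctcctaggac

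Among ERK feedback targets, 16 of 17 measured had the higher mean in LID + Vehicle, 5 were past the unadjusted threshold and higher, against 1.53% of transcripts with 1 symbol, and the median was 0.27. Phlda1, induced by ERK, had 8.07, 7.52 and 7.24 in LID + Vehicle rats, against 7.09, 7.09 and 6.95 in LID rats (0.57, SE 0.18, and 0.34 without LID + Vehicle replicate 1). Dusp1, a phosphatase that shuts down MAP kinases, had 9.80, 8.28 and 8.68 in LID + Vehicle rats, against 8.06, 8.73 and 7.35 in LID rats (0.87, SE 0.39, and 0.43 without LID + Vehicle replicate 1 or 0.52 without LID replicate 3). Errfi1, an inhibitor of the EGF receptor, had 10.04, 9.33 and 8.85 in LID + Vehicle rats, against 8.70, 9.07 and 8.52 in LID rats (0.64, SE 0.24, and 0.33 without LID + Vehicle replicate 1). Both overlapped between the groups. Ier3 was below the dim level in all LID rats and in 1 LID + Vehicle rat, and its LID + Vehicle mean was at least 1.3-fold higher. Without LID + Vehicle replicate 1, 15 of 17 members were higher with a median of 0.14, and 1 was past the threshold. Leaving out LID replicate 1 or LID replicate 3 kept 2 past it in each fit.

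Genes of tissue remodelling showed the same lean. All 12 measured members of the plasminogen system and proteases had the higher mean in LID + Vehicle (median 0.41) and 4 were past the unadjusted threshold, against 1.53% of transcripts with 1 symbol. Mmp14, a membrane-bound matrix metalloproteinase, had 6.80, 6.23 and 6.33 in LID + Vehicle rats, against 6.06, 6.06 and 5.99 in LID rats (0.41, SE 0.15, and 0.24 without LID + Vehicle replicate 1), with no overlap. Adamts1, a protease that cleaves proteoglycans, had 8.71, 7.00 and 6.61 in LID + Vehicle rats, against 6.24, 6.70 and 6.43 in LID rats (0.98, SE 0.39). That difference was 0.35 without LID + Vehicle replicate 1 and 1.40 without replicate 3. Plaur, the urokinase receptor, had 7.53, 7.01 and 7.10 in LID + Vehicle rats, against 6.77, 7.06 and 6.29 in LID rats (0.51, SE 0.21, and 0.30 without LID replicate 3). LID + Vehicle replicate 1 was highest for 9 of the 12, and without it the median was 0.20 with 0 past the threshold. Leaving out LID replicate 1 kept 2 past it, and leaving out LID replicate 3 kept 1.

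Plaur is shown for its AP-1 site (TGANTCA, with N for any base), which is bound by Fos and Jun. The site occurred in 7.33% of all promoters and in 4 of 9 members of this list with a promoter, or 44.4%. The window is chr1:89181113-89181412 on the plus strand, with the site in capitals 83 bases before the start.
Plaur: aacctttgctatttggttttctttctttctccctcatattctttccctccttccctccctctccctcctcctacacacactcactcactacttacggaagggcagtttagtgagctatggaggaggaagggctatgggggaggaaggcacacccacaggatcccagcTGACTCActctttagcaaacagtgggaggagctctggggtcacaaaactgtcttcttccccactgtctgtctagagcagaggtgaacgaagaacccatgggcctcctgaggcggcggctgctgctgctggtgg

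Reactive astrocyte genes had the highest median of the lists of glial cells. Of 18 measured, 16 had the higher mean in LID + Vehicle, the median was 0.75, and 5 were past the unadjusted threshold, all higher, against 1.53% of transcripts with 1 symbol. Their mean level was 8.65, 8.07 and 6.69 in LID + Vehicle rats, against 7.07, 6.40 and 7.30 in LID rats. LID + Vehicle replicates 1 and 2 therefore stood above all LID rats while replicate 3 lay within their range. Without replicate 1 the median was 0.21, without replicate 3 it was 1.37 with 12 members past the threshold, and without LID replicate 2 it was 0.40. Steap4, a metalloreductase of this state, had 6.45, 8.10 and 6.00 in LID + Vehicle rats and was below the dim level in all LID rats (5.75, 5.31 and 5.56), at least 2.0-fold higher. Hspb1, a small heat shock protein, had 9.57, 8.60 and 5.98 in LID + Vehicle rats, against 6.72, 6.07 and 6.94 in LID rats (1.47, SE 0.76, not past the unadjusted threshold). It was 0.71 without LID + Vehicle replicate 1 and 2.51 without replicate 3. Homeostatic astrocyte genes, such as those for glutamate uptake, had a median of 0.07 over 9 members with 0 past the threshold.

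Cytokines and chemokines, many of them below the dim level in striatum, leaned the same way. Of 16 measured, 13 had the higher mean in LID + Vehicle and 3 were past the unadjusted threshold, each with all LID rats below the dim level, against 1.53% of transcripts with 1 symbol. The list had a median of 0.50 that was 0.15 without LID + Vehicle replicate 1 and 0.98 without replicate 3. Over the 7 members above the dim level the median was 0.20. Il1b, interleukin-1 beta, was chosen after its values were seen: it had 6.57, 6.12 and 4.62 in LID + Vehicle rats, against 4.03, 3.45 and 4.15 in LID rats. All LID rats, 1 LID + Vehicle rat and the LID + Vehicle mean of 5.77 were below the dim level, so no difference is given for it. Ccl7, a monocyte chemokine also chosen after its values were seen, had 8.93, 7.51 and 4.08 in LID + Vehicle rats, against 3.99, 3.61 and 4.58 in LID rats, at least 1.99-fold higher in the mean. Replicate 3 of the infused group was within the LID range.

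**Figure D3:**
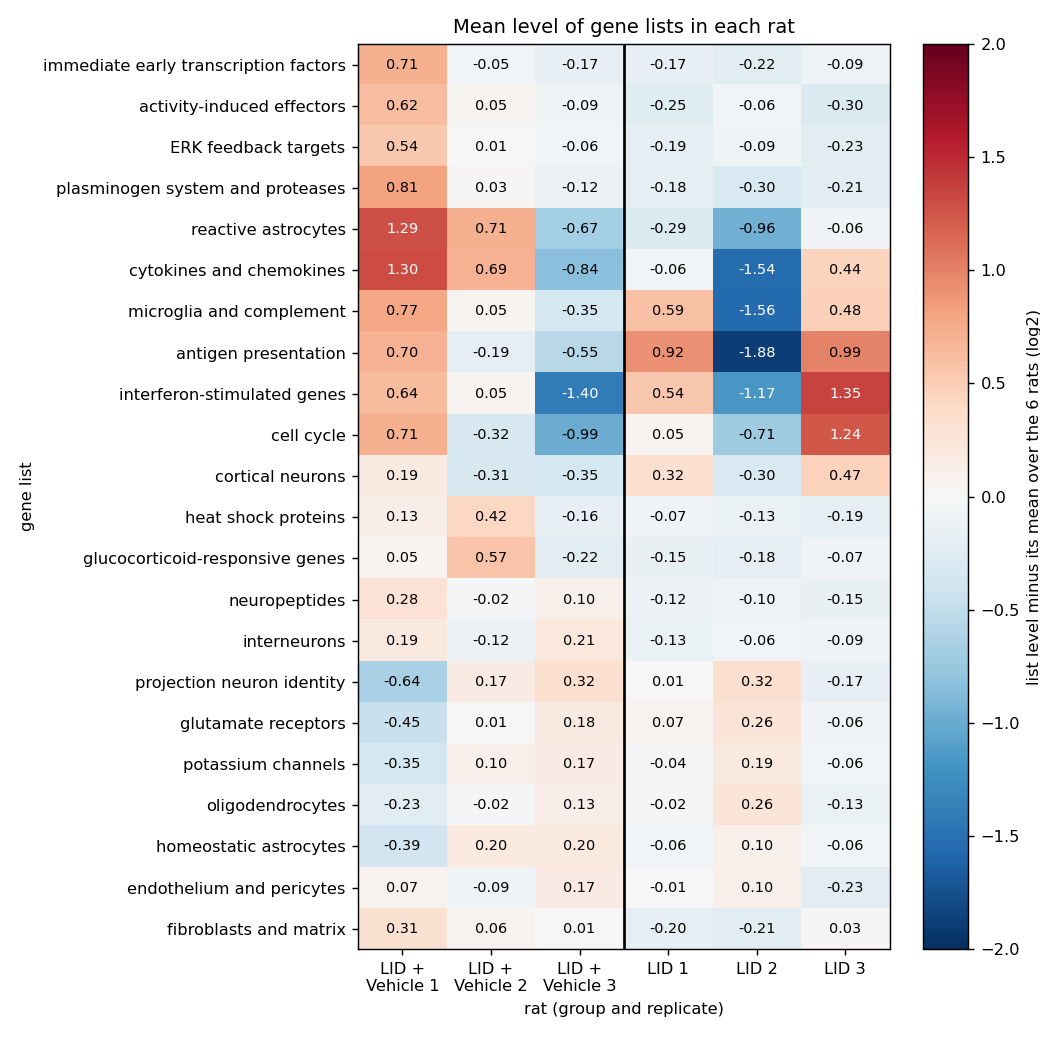
Mean log2 level of the measured members of 22 gene lists (rows) in each of the 6 rats (columns, LID + Vehicle left of the line), as the difference from the mean over the 6 rats (colour and printed value). LID + Vehicle replicate 1 is highest for activity, protease and reactive astrocyte genes, LID replicate 2 is lowest for microglia and antigen presentation, and LID + Vehicle replicate 2 is highest for heat shock and glucocorticoid-responsive genes.

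Genes of microglia, antigen presentation, interferon response and cell division followed single rats rather than the groups. Of 16 measured microglia and complement genes, 15 had the higher mean in LID + Vehicle with 0 past the unadjusted threshold (median 0.25). Their mean level was 9.93, 9.21 and 8.81 in LID + Vehicle rats, against 9.75, 7.60 and 9.64 in LID rats, and without LID replicate 2 the median was -0.18 with 2 of 16 higher. C3, the central complement protein, had 11.59, 11.59 and 11.01 in LID + Vehicle rats, against 11.73, 7.67 and 11.26 in LID rats. Cd74, the invariant chain of MHC class II, had 12.90, 11.72 and 12.03 in LID + Vehicle rats, against 13.01, 8.19 and 12.81 in LID rats, where replicate 2 was again low. Without LID replicate 2 the differences of C3 and Cd74 changed sign, to -0.10 and -0.69. All 9 measured antigen presentation genes were lowest in LID replicate 2 (median -0.03 with all rats, -0.77 without it).

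Interferon-stimulated genes were lower on average in LID + Vehicle, 13 of 15 measured, with a median of -0.62 and 0 past the unadjusted threshold in either direction. Their mean level was 7.84, 7.25 and 5.80 in LID + Vehicle rats, against 7.74, 6.03 and 8.55 in LID rats, and LID replicate 3 was highest for 14 of 15. Isg15, a ubiquitin-like protein of this response, had 6.80, 6.74 and 4.20 in LID + Vehicle rats, against 6.98, 4.58 and 8.72 in LID rats. The median of the list was 0.08 without LID replicate 3, 0.12 without LID + Vehicle replicate 3 and -1.32 without LID replicate 2. The interferon-stimulated response element (GAAA, any 2 bases, then GAAA again) lay in 6 of the 10 members with a promoter (60.0%), against 3.92% of all promoters. Rsad2, the antiviral protein viperin and a member of this list, is shown as the example, with the element in capitals on the opposite strand, its first base 147 before the start, in chr6:48788071-48788370 on the minus strand.
Rsad2: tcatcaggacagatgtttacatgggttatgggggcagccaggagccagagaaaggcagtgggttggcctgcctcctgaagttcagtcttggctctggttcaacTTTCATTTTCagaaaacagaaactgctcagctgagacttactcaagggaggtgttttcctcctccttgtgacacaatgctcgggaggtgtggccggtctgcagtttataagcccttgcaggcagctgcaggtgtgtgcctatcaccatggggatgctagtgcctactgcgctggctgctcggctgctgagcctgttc

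Cell cycle genes followed a like pattern, with 11 of 11 lower on average in LID + Vehicle (median -0.36) and 0 past the unadjusted threshold. Only 5 of them lay above the dim level, with a median of -0.225. Top2a, a topoisomerase of dividing cells, had 7.35, 6.00 and 5.04 in LID + Vehicle rats, against 6.94, 5.67 and 8.30 in LID rats. The median was 0.16 without LID replicate 3 and 0.02 without LID + Vehicle replicate 3. Cortical neuron genes, which mark tissue beside the striatum, varied across these rats as well. Slc17a7, the vesicular glutamate transporter of cortical neurons, had 9.68, 7.39 and 7.19 in LID + Vehicle rats, against 9.20, 7.26 and 9.63 in LID rats. Of 8 measured cortical genes 7 had the lower mean in LID + Vehicle (median -0.26), with list levels of 7.61, 7.11 and 7.07 in LID + Vehicle rats, against 7.74, 7.12 and 7.89 in LID rats. Their part in the differences of other lists was not tested.

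Heat shock proteins and glucocorticoid-responsive genes leaned towards LID + Vehicle through replicate 2. Of 16 measured heat shock genes 15 had the higher mean in LID + Vehicle (median 0.18) and 1, Stip1, a co-chaperone, was past the unadjusted threshold, against 1.53% of transcripts with 1 symbol. Stip1 had 10.22, 10.66 and 10.08 in LID + Vehicle rats, against 9.99, 10.10 and 10.03 in LID rats (0.28, SE 0.13, and 0.11 without LID + Vehicle replicate 2). It missed the threshold without LID + Vehicle replicate 2 or LID replicate 1, 2 or 3 (0.11 to 0.31). Replicate 2 was the highest rat for 14 of 16, and without it the median was 0.05 with 10 of 16 higher. All 14 measured glucocorticoid-responsive genes had the higher mean in LID + Vehicle (median 0.19), and 1 was past the threshold, against 1.53% of transcripts with 1 symbol. Replicate 2 was highest for 9 of them, and without it the median was 0.01 with 7 of 14 higher.

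Striatal projection neuron genes were not ordered by group, though LID + Vehicle replicate 1 stood low. Of 12 measured identity genes 8 had the lower mean in LID + Vehicle, 0 were past the unadjusted threshold in either direction and the median was -0.09. LID + Vehicle replicate 1 was the lowest rat for 12 of 12, and without it 11 of 12 were higher in LID + Vehicle (median 0.19). Pde10a, the phosphodiesterase of these neurons, had 9.81, 10.97 and 11.21 in LID + Vehicle rats, against 10.91, 11.14 and 10.67 in LID rats. Its difference was -0.24 with all rats and 0.19 without replicate 1. Glutamate receptor genes showed the same order, with 11 of 11 lower in mean (median -0.14) and replicate 1 lowest for 9 of them, while without that rat 7 of 11 were higher and the median was 0.03. Grm5, a metabotropic receptor, had 8.70, 9.69 and 9.75 in LID + Vehicle rats, against 9.67, 9.79 and 9.60 in LID rats, with replicate 1 of the infused group again the lowest.

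Neuropeptide genes were higher on average for 17 of 18, with a median of 0.17 that stayed between 0.14 and 0.26 without any 1 rat. Of the 18, 1 was past the unadjusted threshold and higher, against 1.53% of transcripts with 1 symbol. Without LID + Vehicle replicate 1, 12 of 18 were higher. Trh, the precursor of thyrotropin-releasing hormone, had 8.93, 8.86 and 8.99 in LID + Vehicle rats, against 8.47, 8.61 and 8.26 in LID rats (0.47, SE 0.24, not past the unadjusted threshold), without overlap. Nmu, which encodes neuromedin U and was the one past the threshold, had 6.47, 6.80 and 7.17 in LID + Vehicle rats, against 6.78, 5.68 and 5.90 in LID rats (0.69, SE 0.30), and it missed the threshold without LID + Vehicle replicate 2 or 3 or LID replicate 2 or 3 (0.47 to 0.70). Npy, of interneurons, had 10.36, 8.91 and 9.25 in LID + Vehicle rats, against 8.91, 8.98 and 8.84 in LID rats, with replicate 1 of the infused group far above the rest. Interneuron genes were higher in mean for 9 of 10 (median 0.18) with 0 past the threshold.

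**Figure D4:**
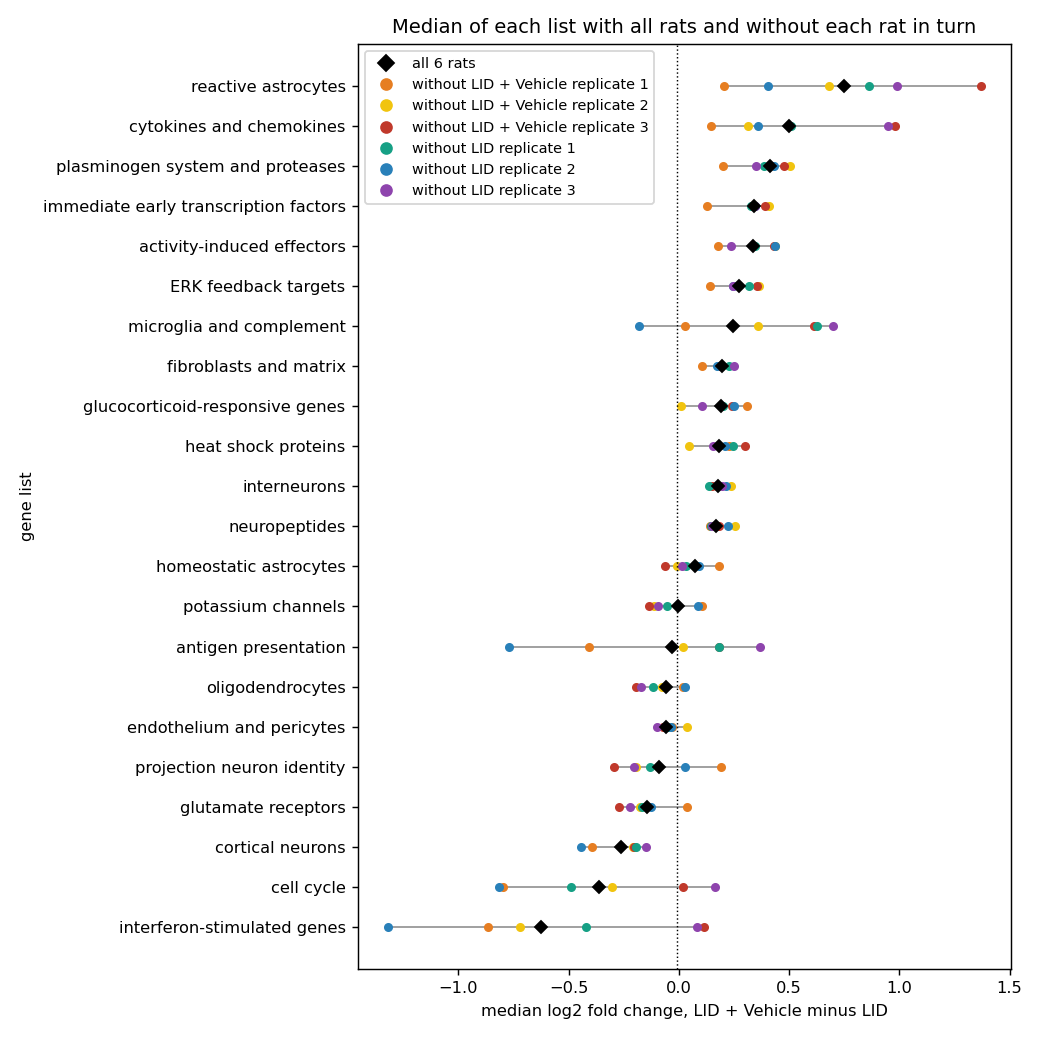
Median log2 difference of LID + Vehicle minus LID over the measured members of 22 lists (horizontal axis, rows are lists), with all 6 rats (black diamonds) and without each rat in turn (coloured points), and a dotted line at the median over all transcripts with 1 symbol (-0.01). Medians of activity, protease and reactive astrocyte genes stay above it without any 1 rat, while those of microglia, interferon and cell cycle genes cross it.

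Th, Arnt, Fosb and Nr4a2, which the study discusses, passed neither threshold. Th, tyrosine hydroxylase, had 6.93, 7.48 and 6.84 in LID + Vehicle rats, against 6.27, 6.98 and 6.83 in LID rats (0.39, SE 0.25), and the difference was 0.18 without LID replicate 1. Arnt, the partner of a hypoxia transcription factor and of the dioxin receptor, had 8.27, 8.68 and 8.56 in LID + Vehicle rats, against 8.41, 8.48 and 8.46 in LID rats (0.05, SE 0.10), and the difference was -0.04 without LID + Vehicle replicate 2. Fosb, the gene of the persistent factor of dyskinesia, had 7.41, 7.10 and 6.97 in LID + Vehicle rats, against 6.83, 7.02 and 6.65 in LID rats (0.33, SE 0.18, and 0.20 without LID + Vehicle replicate 1). The groups overlapped for these 3 genes. The Fosb transcript measured here differs from the probe set whose trend the paper found to match its quantitative PCR. That probe set was not analysed here. The paper describes the design of the Fosb probes on this array as probably imperfect. Nr4a2, an orphan nuclear receptor that cortical neurons express, had 8.62, 7.42 and 6.76 in LID + Vehicle rats, against 8.66, 7.20 and 8.91 in LID rats. Of 15 measured partners of Arnt and hypoxia targets, 3 were past the unadjusted threshold, all higher, against 1.53% of transcripts with 1 symbol. Ddit4, an inhibitor of mTOR, was 0.43 higher (SE 0.17), and 0.28 without LID replicate 3. Slc2a1, the glucose transporter, was 0.39 higher (SE 0.16), and 0.20 without LID + Vehicle replicate 1. It missed the unadjusted threshold without LID + Vehicle replicate 1 or 2 or LID replicate 1, 2 or 3 (0.20 to 0.39).

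Vessel and growth factor lists split by gene. Flt1, a VEGF receptor, was 0.32 higher (SE 0.15), and 0.21 without LID replicate 3. It missed the unadjusted threshold without LID + Vehicle replicate 1, 2 or 3 or LID replicate 1 or 3 (0.21 to 0.36). It had no overlap, like Apold1, while 7 of 11 measured endothelial and pericyte genes had the lower mean and the list median was -0.06. Cntf, a factor of astrocytes, was the one lower member past the unadjusted threshold among 17 growth factors, against 1.11% of transcripts with 1 symbol, with 6.18, 5.86 and 5.82 in LID + Vehicle rats, against 6.46, 6.34 and 6.29 in LID rats (-0.41, SE 0.17). It missed the threshold without LID + Vehicle replicate 2 or 3 or LID replicate 1 or 2 (-0.34 to -0.42). Of 12 measured genes of thalamus, hypothalamus and septum, 7 had the higher mean and 5 the lower (median 0.09, and -0.01 over the 5 above the dim level). Groups did not overlap for 2 that were higher and 1 that was lower, against 3.34% and 3.78% of transcripts with 1 symbol. Tcf7l2, a transcription factor of thalamic neurons and one of the higher ones, differed by 0.35 (SE 0.12). Without LID + Vehicle replicate 3 it differed by 0.26 and missed the unadjusted threshold. Oligodendrocyte genes had a median of -0.06 over 13 members, with 0 past the threshold in either direction.

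The other groups, which were not tested here, place these levels. Lcn2 was at 9.70, 10.66 and 7.22 in LID + PD98059 rats, which also carry a cannula, against 5.40 ± 0.22 in PD and 5.26 ± 0.38 in Normal rats (SD, n = 3 each), both below the dim level. Serpina3n was at 7.97, 9.32 and 6.27 in LID + PD98059 rats. Reactive astrocyte genes had list levels of 7.13, 8.09 and 6.59 in LID + PD98059 rats, against 6.20, 6.19 and 6.21 in PD rats and 6.10, 6.32 and 6.03 in Normal rats. Of the LID + PD98059 rats, 1 lay above the range of the LID rats and 2 lay within it. PD and Normal rats also had no L-DOPA. Some genes without overlap between LID + Vehicle and LID had LID + PD98059 means near LID. These were 6.14 for Gpat3 (LID 6.20), 8.41 for Pxk (LID 8.38) and 8.78 for Egr1 (LID 8.89). Others lay between the 2 groups, such as Pex11a at 6.94 (LID 6.57, LID + Vehicle 7.06). Egr1 was 9.45, 9.38 and 9.25 in Normal rats, so its LID + Vehicle levels lay near those of sham-operated rats. Trh was below the dim level in all PD and Normal rats, between 5.02 and 5.67.

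**Figure D5:**
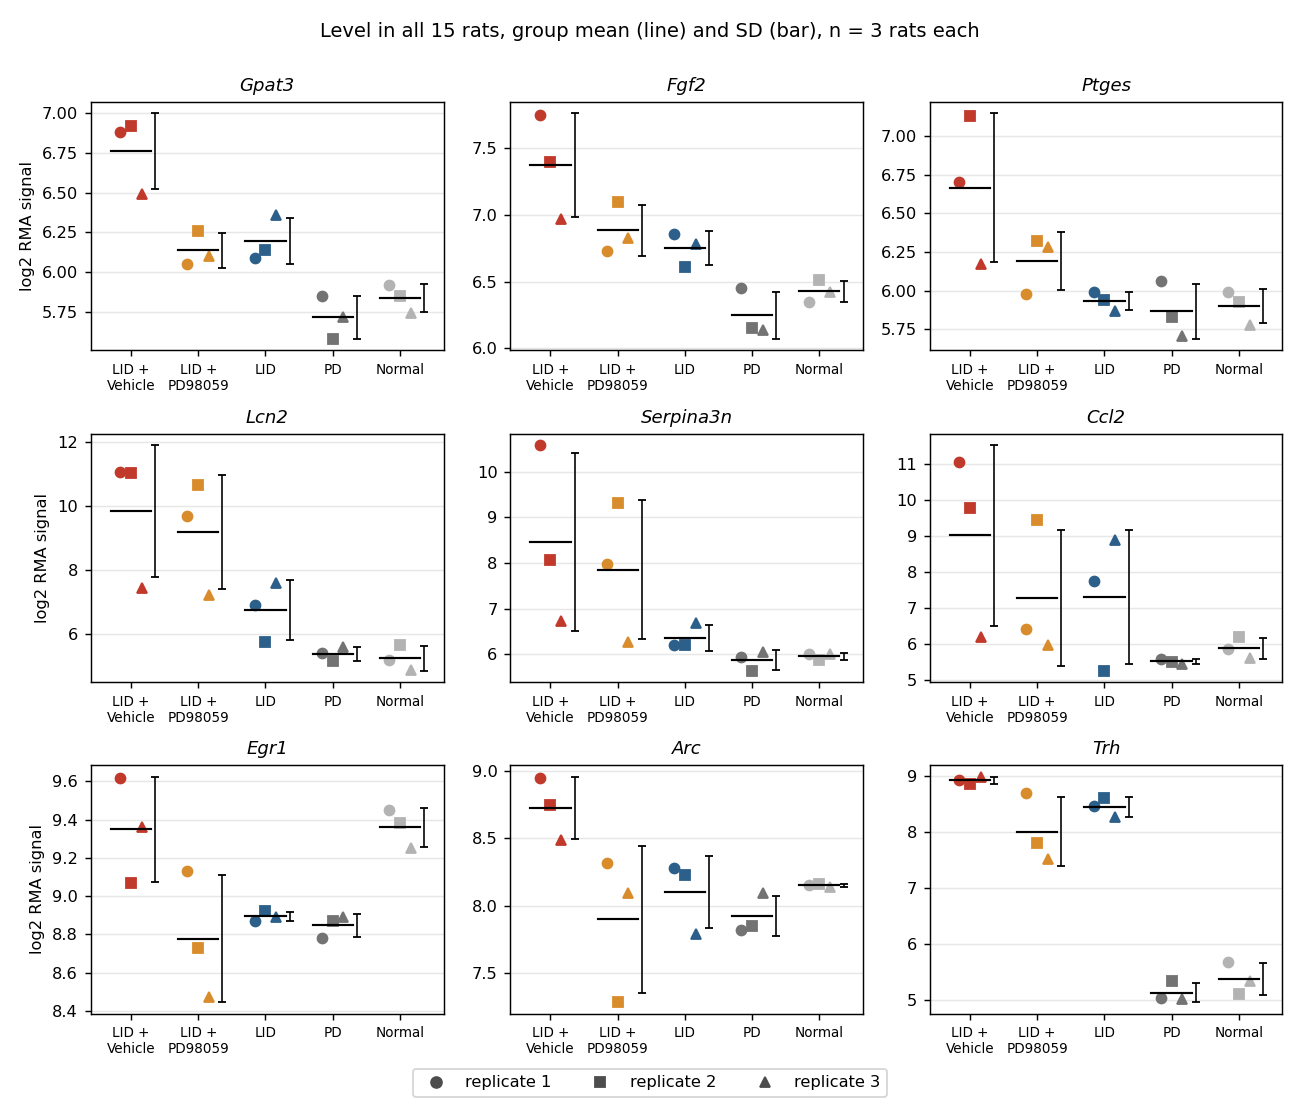
Log2 signal (vertical axis) of 9 transcripts in all 15 rats by group, with circles, squares and triangles for replicates 1, 2 and 3, the group mean as a line and the SD as a bar (n = 3 rats each). Lcn2 is high in LID + Vehicle and LID + PD98059 rats other than replicate 3 of each, and Gpat3 lies above the other groups in all 3 LID + Vehicle rats.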

How the data were processed

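The authors deposited log2 values of each transcript, made with RMA in Affymetrix Expression Console (versions not given in the sources used here; the methods name the exon level option and a median over the probes of a transcript), and these were used without further scaling. Groups were compared with limma 3.58.1 in R 4.3.3 (lmFit and eBayes without trend, 1 mean for each of 5 groups over all 15 arrays, two-sided, Benjamini-Hochberg adjustment over all 36685 transcripts). The study names both an adjusted and an unadjusted p, so both counts are given. Summaries used pandas 2.3.3 and figures matplotlib 3.10.9 in Python 3.11.15. The procedure was tested on simulated data.

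Symbols came from the probe table of the platform: 575 transcripts had several and 17599 none. Of several transcripts of a gene the brightest was taken. Named genes were those with the smallest p without overlap or the largest differences, by direction, above the dim level, up to 4 per list, and Th, Arnt, Fosb, Nr4a2, Fgf2 and Ptges. The text leaves out some genes that meet this rule. The second Fosb transcript that the rule names was not analysed here. Members and lists were chosen with earlier results of these data known, and lists share members. Replicates are separate rats. The interval between the last L-DOPA dose and death of the array rats is not given in the sources used here. Alternatives were median centring, quantile normalization, array weights, an intensity trend, the 6 arrays alone, removal of dim or duplicated transcripts, a replicate block and leaving out each rat.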

Additional observations from a re-analysis of the deposited data

How the results depend on the processing

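No transcript passed the adjusted limma threshold under median centring, quantile normalization, array weights, an intensity trend, the 6 arrays alone, removal of dim transcripts or a replicate block, and 0 to 1 passed when any 1 rat was left out. The 1 that passed came without LID + Vehicle replicate 1, has no symbol and lies in the dim range (mean 3.26, log2 difference 3.01, adjusted p = 0.000136). The unadjusted count of 1349 became 499 without dim transcripts (249 higher and 250 lower, fewer transcripts being tested) and 1410 to 1767 when any 1 rat was left out (710 to 871 higher, 662 to 896 lower). Of the 1349, 52.0% to 62.8% were shared with those counts. Median centring gave 841 higher and 531 lower, 61.3% higher against 50.4%.

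The replicate numbers did not pair rats: deviations from the group means of rats with the same number correlated at 0.241, 0.0417 and -0.497 over transcripts. A fit with a replicate block gave 676 higher and 685 lower, 1361 in all, with 0 adjusted.

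The direction turned in 9 of the single-gene values, given with the range over leaving out any 1 rat: Hbegf (-0.05 to 1.49), Pde10a (-0.51 to 0.19) and Grm5 (-0.49 to 0.03) without LID + Vehicle replicate 1, C3 (-0.10 to 1.94) and Cd74 (-0.69 to 1.72) without LID replicate 2, Arnt (-0.04 to 0.17) and Pdk4 (-0.13 to 0.81, a gene chosen after its values were seen) without LID + Vehicle replicate 2, and Isg15 (-1.94 to 0.14) without LID + Vehicle replicate 3 (0.01) or LID replicate 3. Choroid plexus genes had a median of -0.29 over the 2 members above the dim level, against -0.06 over all 9. Signal near the dim level limits these values.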
